A study of Mus musculus with 8 samples.

Results

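The small leucine-rich proteoglycans examined here were decorin (Dcn), lumican (Lum), biglycan (Bgn), fibromodulin (Fmod), osteoglycin (Ogn), asporin (Aspn), prolargin (Prelp), osteomodulin (Omd), podocan (Podn) and keratocan (Kera). The list was given by name, and a probe set of the mouse whole-genome array counted for a gene where the platform annotation gave it that gene alone. All 10 genes were measured, by 21 of the 34945 probe sets with 1 gene, and they are 10 of the 18193 genes tested. The arrays measured RNA of mouse embryonic fibroblasts of strain C57BL/6 at passage 13, a cell type grown from embryos and kept in culture. Wild type cells, called control cells here, and Stat5a/b-null cells, labelled as null for both Stat5a and Stat5b, were starved for 5 hours. Growth hormone (GH) was then added at 1 ug/ml for 2 hours, or was not added. Each of the 4 groups (WT-, WT+GH, KO- and KO+GH) held 2 arrays, called biological replicates in the labels and numbered 2 and 3. The sources used here do not say whether replicates came from separate embryos or cultures, which part of either gene was deleted, or which GH preparation was used, so the p-values cover only how far the 2 arrays of a group differ, which may be technical.

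Small leucine-rich proteoglycans are secreted proteins built around a run of leucine-rich repeats, most of which carry chondroitin, dermatan or keratan sulphate chains. They bind collagen fibrils and set fibril width and spacing, and several also bind TGF-beta and cell surface receptors. Connective tissue fibroblasts are their main source. Many of the genes lie side by side in the genome. By the RefSeq gene table of assembly GRCm38.p6, Dcn, Lum and Kera lie in one cluster on chromosome 10, with 4930473O22Rik between Lum and Kera, Aspn, Omd and Ogn on chromosome 13, and Prelp and Fmod on chromosome 1, whereas Podn on chromosome 4 and Bgn on the X chromosome stand apart from the other members.

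Because the neighbours on chromosome 13 were higher together in null cells, the 250 bases before the annotated starts of these 3 genes are shown, from RefSeq promoters of build GRCm38.p6, all on the plus strand. They are chr13:49544193-49544442 for Aspn, chr13:49582212-49582461 for Omd and chr13:49607765-49608014 for Ogn. Capitals mark matches to TATAAA and CCAAT on either strand, the core promoter motifs searched.
Aspn: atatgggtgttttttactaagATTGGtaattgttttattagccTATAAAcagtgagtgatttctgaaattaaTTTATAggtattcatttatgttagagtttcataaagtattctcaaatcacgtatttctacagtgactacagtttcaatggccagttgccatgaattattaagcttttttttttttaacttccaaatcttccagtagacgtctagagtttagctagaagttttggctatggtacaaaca
Omd: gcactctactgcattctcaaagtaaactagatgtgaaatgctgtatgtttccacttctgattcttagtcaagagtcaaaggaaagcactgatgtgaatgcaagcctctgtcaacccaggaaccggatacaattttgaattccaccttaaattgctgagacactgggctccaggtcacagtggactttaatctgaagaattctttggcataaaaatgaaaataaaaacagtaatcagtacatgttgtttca
Ogn: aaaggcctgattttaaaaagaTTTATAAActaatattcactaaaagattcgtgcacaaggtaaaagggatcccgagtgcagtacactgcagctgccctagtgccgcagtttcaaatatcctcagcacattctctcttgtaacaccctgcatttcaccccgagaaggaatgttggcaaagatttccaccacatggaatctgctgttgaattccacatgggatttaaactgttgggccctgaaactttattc
TATAAA matched at 207 and 178 bases before the start of Aspn, and at 229 and 227 bases before that of Ogn, where the 2 matches lie on opposite strands and overlap. CCAAT matched once, 229 bases before the start of Aspn, and the Omd window held neither motif. Windows of this length held TATAAA in 12.4% and CCAAT in 33.8% of 32851 RefSeq promoters. The letters TTCNNNGAA, to which STAT proteins bind, matched in none of the 9 windows of the 8 members with a promoter entry, against 7.02% of all promoters. Dcn and Lum had no promoter entry and were not searched. The result says only that the letters are not in these windows.

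The values are on the log2 scale after robust multi-array averaging (RMA), so a difference of 1 is a 2-fold difference in array signal. Array medians lay between 6.89 and 6.96, and replicate arrays correlated at 0.997 to 0.998 across probe sets. The transcripts checked against the labels were lower in null cells: Stat5b differed by -0.69 ± 0.09 (SE; limma adjusted p = 3.33e-05), and Stat5a, at 7.49 in control cells, fell in null cells under the first quartile of the values of all genes, which was 6.10. Whether these probes lie in the deleted parts is not known, which limits this check. GH raised the direct STAT5 target Cish by 1.95 ± 0.11 in control cells (limma adjusted p = 2.26e-07), and its 0.06 ± 0.11 in null cells did not pass the test (adjusted p = 0.745). All 12 fibroblast markers were above the first quartile in every group, with a summed linear signal between 181152 and 196343. The cultures also carried macrophage transcripts. Each of 10 markers of macrophages and other leukocytes was lower without Stat5a/b, with a summed linear signal of 27659 to 30331 on control and 1706 to 1857 on null arrays. On null arrays without GH, Ptprc and Itgam lay below the first quartile, and with GH also Tyrobp, Adgre1 and C1qa. The part of these markers in the differences below was not tested. A change in the number of cells of a type and a change in RNA per cell cannot be told apart in such bulk samples.

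The family divided by genotype. Without GH, 6 of the 10 genes were higher in null cells, where 24.8% of all genes tested were, and 2 were lower, against 22.7% of all genes (limma, Benjamini-Hochberg adjusted p below 0.05). The higher genes were Dcn, Lum, Kera, Aspn, Omd and Ogn, which are all the members of the clusters on chromosomes 10 and 13. The lower genes were Fmod and Podn, and Bgn and Prelp did not pass the test. The arrays of the genotypes, 4 against 4, did not overlap for these 8 genes; null arrays lay above for 6, against 23.4% of all genes, and below for 2, against 23.6%. With GH the same 6 were higher, against 22.2% of all genes, and Prelp joined Fmod and Podn as lower, against 23.1%. Averaged over the GH states, 6 were higher, against 27.7% of all genes, and 3 lower, against 26.8%; of these, the averaged call of Prelp (-0.17 ± 0.07, adjusted p = 0.0486) was lost in 6 of the 8 fits that left out 1 array, with adjusted p up to 0.224. The share called lower was thus close to that of all genes. The median log2 difference of the 10 genes was 1.72 without GH and 1.71 with GH, beside 0.03 and -0.02 for all genes. Requiring a change of at least 1.5-fold still called all 6 higher genes in both GH states, against 6.8% and 6.06% of all genes, and none of the lower ones, against 7.51% and 7.26%. Among these 6, Kera stayed under the 6.10 quartile in all 4 groups, so its pass is not read as a size. In the fit with dim genes left out, with no minimum fold, 5 members were called higher in either GH state. Averaged over the GH states, 5 members were higher by a log2 difference of 2 or more, which 0.978% of all genes were. Members were chosen with earlier results of these data known, so these shares describe the list and do not test it.

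**Figure D1:**
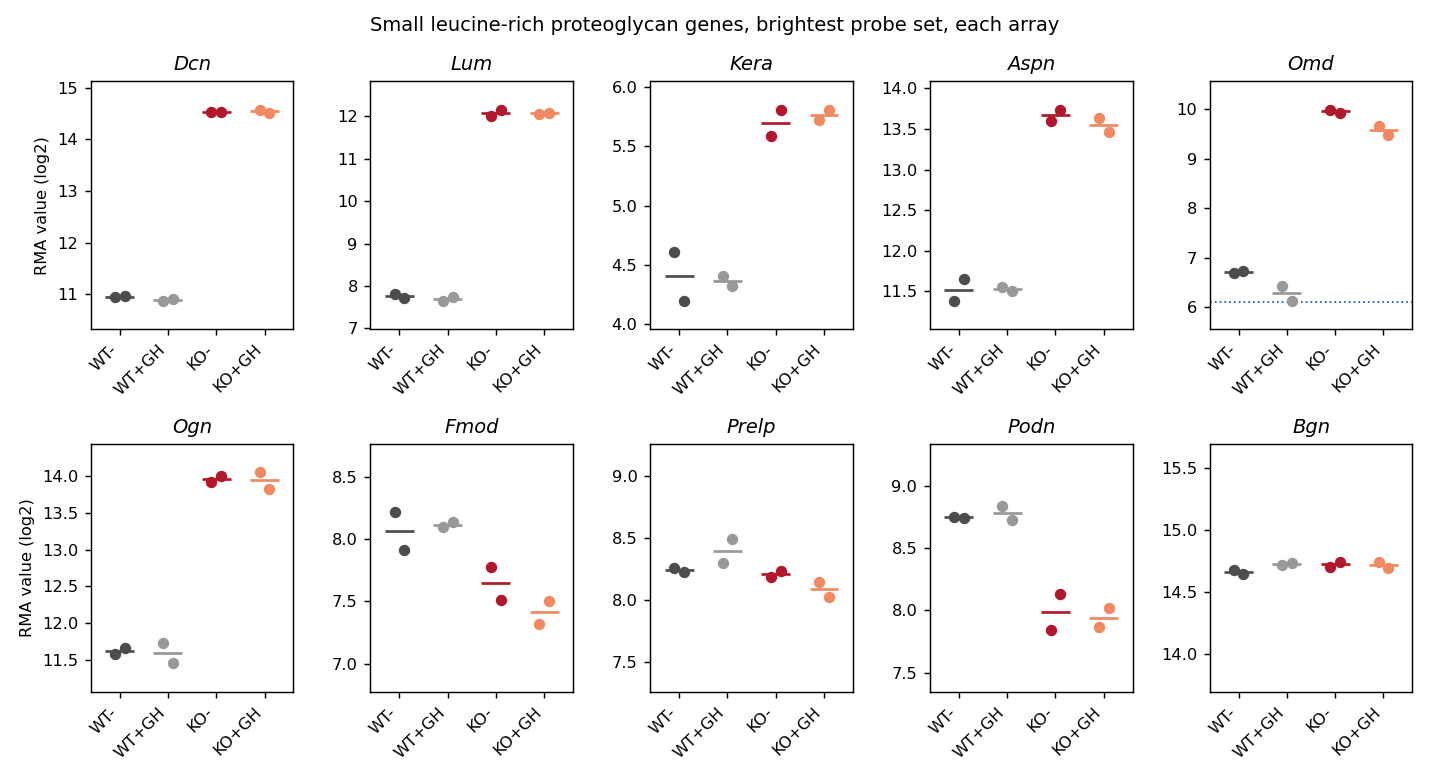
RMA values (log2, vertical axis, its own range in each panel) of the brightest probe set of each gene on the 8 arrays. Points are arrays, short lines group means, and the dotted line is the first quartile of all gene values where it falls in the panel; Kera lies wholly below it. For Dcn, Lum, Kera, Aspn, Omd and Ogn all 4 null arrays sit above all 4 control arrays, for Fmod and Podn all 4 sit below, and for Prelp and Bgn they overlap.

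Decorin, biglycan and asporin form one class of the family. Decorin, named for decorating collagen fibrils, also binds TGF-beta and dampens growth factor receptors. Dcn read 10.95 and 10.96 on the control arrays without GH and 10.88 and 10.91 with GH. On null arrays it read 14.53 and 14.52 without GH and 14.57 and 14.51 with GH. The genotypes were far apart, and arrays of one genotype lay close together in both GH states. The difference was 3.57 ± 0.08 without GH, or 11.9-fold (limma adjusted p = 1.13e-11), and 3.64 ± 0.08 with GH, or 12.5-fold (adjusted p = 8.34e-12). A second, dimmer probe set, 1441506_at, was also called higher in null cells (adjusted p = 0.00831 without GH and 2.36e-06 with GH over probe sets). Its control means were below the first quartile, so no size is given, and its null means were 6.77 without GH and 8.10 with GH. Averaging both probe sets took the log2 difference of Dcn without GH from 3.57 to 2.13 (adjusted p = 4.09e-08). The null values of the brighter probe set stood near the upper end of the array scale, where the highest value of any probe set was 15.14.

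Asporin, a relative of decorin known to hold TGF-beta and to act in cartilage and periodontal ligament, was also higher. Aspn read 11.38 and 11.65 on control arrays without GH and 11.55 and 11.504 with GH. It read 13.60 and 13.74 on null arrays without GH and 13.63 and 13.46 with GH. No null array came near a control array. The differences were 2.15 ± 0.11 without GH (4.45-fold, limma adjusted p = 9.04e-09) and 2.02 ± 0.11 with GH (4.06-fold, adjusted p = 1.63e-08). A second, dimmer probe set gave 1.79 ± 0.17 and 1.73 ± 0.17.

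Biglycan, the closest relative of decorin, which is found in bone and skin matrix and can signal through Toll-like receptors, did not follow it. Bgn read 14.68 and 14.65 on control arrays without GH, 14.72 and 14.73 on control arrays with GH, 14.70 and 14.74 on null arrays without GH and 14.74 and 14.69 on null arrays with GH. The groups overlapped. The difference was 0.06 ± 0.08 without GH, with a 95% interval from -0.12 to 0.24 (limma adjusted p = 0.593), and -0.01 ± 0.08 with GH, with an interval from -0.19 to 0.18 (adjusted p = 0.963). The other 2 probe sets lay at 0.07 and 0.06 without GH and did not pass either. The mean of the brightest probe set stood at the 99.93 percentile of all probe set values. Whether the signal could still have risen at that level was not tested.

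Fibromodulin, lumican, prolargin, keratocan and osteomodulin form another class, several of which carry keratan sulphate. Lumican, which orders collagen fibrils in cornea and skin, had the largest difference among the 10 genes. Lum read 7.80 and 7.72 on control arrays without GH and 7.65 and 7.75 with GH, close to the median of all gene values (8.04). On null arrays it read 11.997 and 12.16 without GH and 12.06 and 12.08 with GH. The difference was 4.32 ± 0.09 without GH (19.9-fold, limma adjusted p = 6.25e-12) and 4.37 ± 0.09 with GH (20.7-fold, adjusted p = 4.96e-12). Over the alternatives tried, the difference without GH stayed between 4.24 and 4.40.

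Osteomodulin, a bone matrix proteoglycan that binds osteoblast integrins, was higher in null cells too. Omd read 6.69 and 6.72 on control arrays without GH and 6.43 and 6.13 with GH, the last close to the first quartile. It read 9.99 and 9.92 on null arrays without GH and 9.67 and 9.47 with GH. The differences were 3.25 ± 0.11 without GH (9.52-fold, limma adjusted p = 3.12e-10) and 3.29 ± 0.11 with GH (9.77-fold, adjusted p = 2.71e-10). Since the control level was near the dim end of the scale, these folds rest on a weak signal. In both genotypes the arrays with GH lay below those without, a point taken up with the GH comparison.

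Keratocan, the keratan sulphate proteoglycan of the cornea, was dim throughout. Kera read 4.61 and 4.20 on control arrays without GH and 4.41 and 4.32 with GH, and 5.58 and 5.81 on null arrays without GH and 5.72 and 5.80 with GH. All null arrays lay above all control arrays and the test called it higher (limma adjusted p = 3.56e-06 without GH and 1.98e-06 with GH). Every value was below the first quartile, a level not set apart from background, so no size is given.

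Fibromodulin, which competes with lumican for collagen and is abundant in tendon and cartilage, went the other way. Fmod read 8.22 and 7.92 on control arrays without GH and 8.10 and 8.14 with GH. It read 7.78 and 7.51 on null arrays without GH and 7.32 and 7.51 with GH. The arrays of the 2 genotypes did not overlap, although the gap without GH was small. The difference was -0.42 ± 0.12 without GH (limma adjusted p = 0.0128) and -0.71 ± 0.12 with GH (adjusted p = 0.000419). Without GH the call was lost when control replicate 2 (-0.27, adjusted p = 0.118) or null replicate 3 (-0.29, adjusted p = 0.128) was left out. Fmod had 6 probe sets, more than any other member, and in the fit of single probe sets 5 were called lower without GH, where 44% of all probe sets were called in either direction, and all 6 with GH, where 42.1% were. Of those above the first quartile, the most changed, 1456084_x_at, gave -1.25 ± 0.10 and -1.27 ± 0.10 and the least changed without GH, 1437718_x_at, gave -0.26 ± 0.11 and -0.71 ± 0.11. The suffix x_at marks probe sets that may bind related transcripts, which 5 of the 6 carry. The other, 1415939_at, gave -0.64 ± 0.09 without GH (limma adjusted p = 0.000157 over probe sets) and -0.76 ± 0.09 with GH (adjusted p = 4.66e-05).

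Prolargin, which anchors basement membranes to collagen through heparan sulphate, gave different answers with its 2 probe sets. The slightly brighter one, 1416322_at, read 8.25 and 8.23 on control arrays without GH, 8.30 and 8.49 with GH, 8.18 and 8.23 on null arrays without GH and 8.15 and 8.03 with GH. It differed by -0.03 ± 0.10 without GH (limma adjusted p = 0.81) and by -0.31 ± 0.10 with GH (adjusted p = 0.0184), and the latter call was lost without control replicate 3 (adjusted p = 0.208) or null replicate 3 (adjusted p = 0.127) of the groups with GH. The other, 1416321_s_at, read 8.60 and 8.52, then 8.74 and 8.70, on control arrays without and with GH. On null arrays it read 7.60 and 7.71, then 7.63 and 7.66. There the genotypes did not overlap, with differences of -0.90 ± 0.09 without GH (adjusted p = 7.93e-06 over probe sets) and -1.07 ± 0.09 with GH (adjusted p = 2.09e-06). Prelp was therefore called lower without GH by 1 probe set and not by the other.

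Osteoglycin, also named mimecan, of the class that includes epiphycan and opticin, and podocan, a more distant relative found in vessel wall and kidney matrix, moved in opposite directions. Ogn read 11.58 and 11.67 on control arrays without GH and 11.73 and 11.45 with GH. It read 13.92 and 14.005 on null arrays without GH and 14.05 and 13.83 with GH, clear of every control array. The difference was 2.34 ± 0.11 without GH (5.06-fold, limma adjusted p = 5.82e-09) and 2.35 ± 0.11 with GH (5.11-fold, adjusted p = 5.62e-09), and a second probe set gave 2.61 ± 0.09 and 2.64 ± 0.09. Podn read 8.76 and 8.75 on control arrays without GH and 8.84 and 8.73 with GH. It read 7.84 and 8.13 on null arrays without GH and 7.86 and 8.02 with GH. The null arrays were below every control array, by -0.76 ± 0.11 without GH (1.70-fold lower, limma adjusted p = 8.00e-05) and -0.84 ± 0.11 with GH (1.79-fold lower, adjusted p = 3.74e-05).

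**Figure D2:**
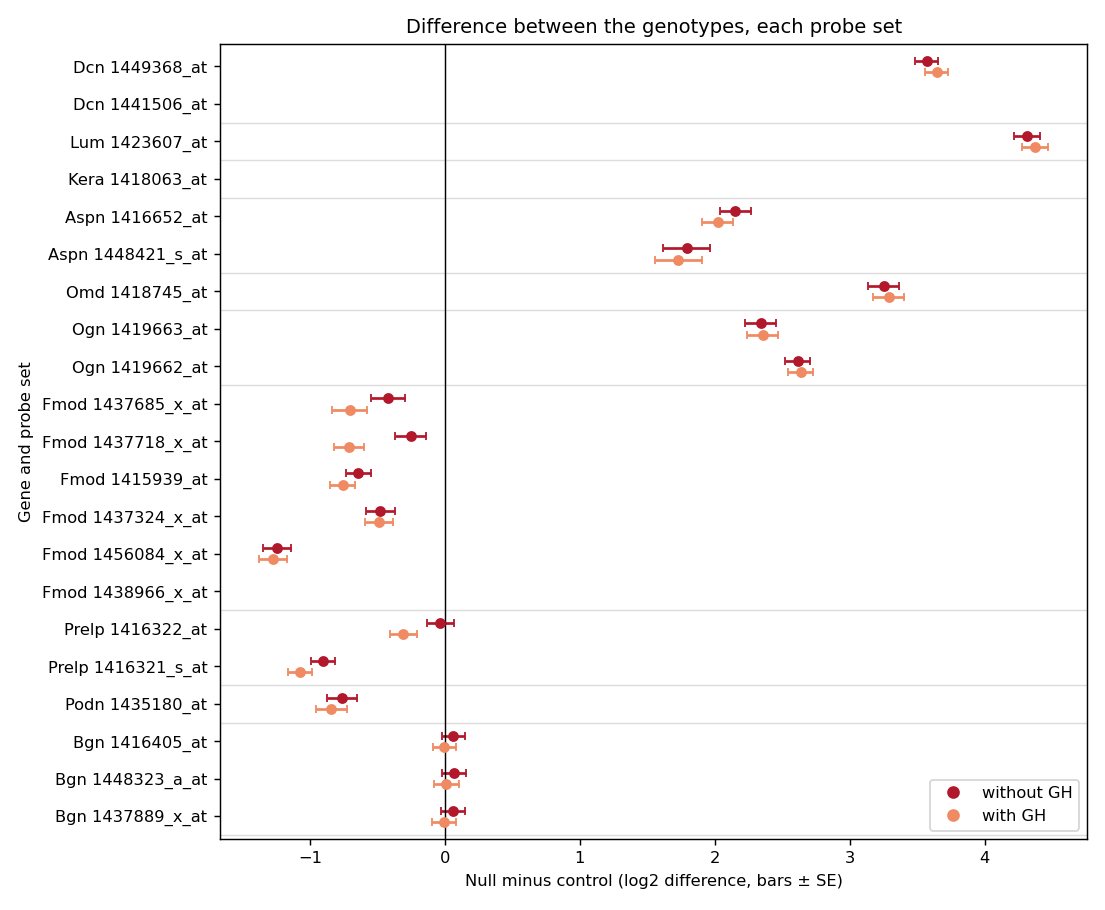
Null minus control log2 difference (horizontal axis) of each member's probe sets, fitted as single probe sets, without GH (dark red) and with GH (orange); bars are ± SE of the fit with 2 arrays per group. Probe sets with a group mean below the first quartile have no point. Probe sets of Dcn, Lum, Aspn, Omd and Ogn lie between 1.73 and 4.37, those of Bgn near 0, and those of Fmod, Prelp and Podn at or below 0, with the 2 Prelp probe sets apart.

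The differences were also set in the order of the genes along the chromosomes. On chromosome 10, Dcn, Lum and Kera were all higher in null cells without GH, and 4930473O22Rik between Lum and Kera was not called (adjusted p = 0.512) and dim in every group. Of the 3 nearest tested genes on each side, 2 were higher and 1 was lower, between -0.43 and 0.99. The highest of these was Btg1, an antiproliferative gene on the Dcn side (0.99 ± 0.09, limma adjusted p = 1.31e-06), while 4930556N09Rik, between Btg1 and Dcn, was not called and dim in every group. Epyc, which encodes the cartilage proteoglycan epiphycan and ends this cluster, was also called higher (adjusted p = 0.00852). Both Epyc and Kera stood below the first quartile in every group. On chromosome 13, Aspn, Omd and Ogn were all higher, by 2.15 to 3.25. Of the 6 flanking genes 2 were higher and 2 lower, between -0.68 and 1.59. The highest was Cenpp, a centromere protein gene (1.59 ± 0.13, adjusted p = 8.23e-07), whose annotated span contains Ecm2, Aspn, Omd and Ogn. Ecm2, a related matrix gene next to Aspn, stood below the first quartile in every group. On chromosome 1, Fmod was lower and Prelp not called, while their neighbour Optc, which encodes opticin of the eye, was higher (0.84 ± 0.13, adjusted p = 0.000113). The gene beside Fmod, the p53 target Btg2, was lower by -1.996 ± 0.09 (adjusted p = 3.36e-09). Around Podn on chromosome 4, 1 of 6 flanking genes was higher and 3 were lower, and around Bgn on the X chromosome 1 was lower. Flanking genes were chosen by position after the members' values were known.

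**Figure D3:**
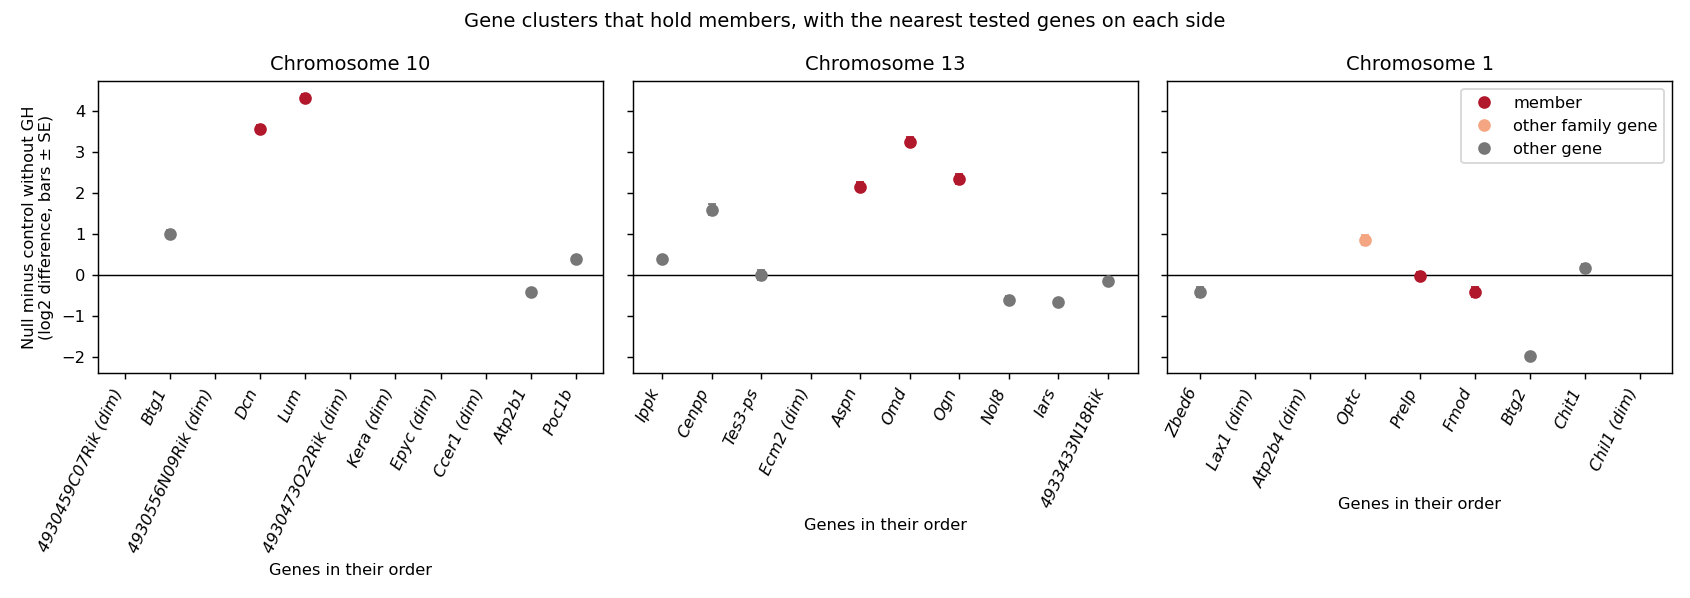
Null minus control log2 difference without GH (vertical axis, bars ± SE, 2 arrays per group) of the genes of the clusters on chromosomes 10, 13 and 1, in their order along the chromosome and evenly spaced, with the 3 nearest tested genes on each side. Genes marked dim had a mean below the first quartile in WT- or KO- and have no point. Dcn and Lum (3.57 and 4.32) and Aspn, Omd and Ogn (2.15 to 3.25) stand above all plotted neighbours.

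Few members differed with GH at 2 hours, and with 10 genes the counts were not set apart from the shares of all genes. In control cells 0 of the 10 genes passed the test, where 2.62% of all genes did (limma). At an unadjusted p under 0.05 there was 1, Omd. In null cells 1 gene passed, where 11.7% of all genes did, and this was Omd again. Omd was lower with GH by -0.42 ± 0.11 in control cells (adjusted p = 0.0857) and by -0.39 ± 0.11 in null cells (adjusted p = 0.0448). Both arrays with GH lay below both without it in each genotype, and the interaction, the difference between the 2 GH effects, was 0.04 ± 0.16 (adjusted p = 0.943). The difference in control cells passed the test without WT+GH replicate 2 (adjusted p = 0.0334) and when dim genes were left out (adjusted p = 0.0383). Leaving out any of the 4 null arrays ended the call in null cells (adjusted p from 0.0894 to 0.251). For Lum the GH difference was -0.06 in control cells, with a 95% interval from -0.26 to 0.14, and 0.00 in null cells, with an interval from -0.21 to 0.20. For the brightest probe set of Dcn the intervals were -0.24 to 0.12 and -0.17 to 0.20. None of the 10 genes had a called interaction, where 5.16% of all genes did, and none had an unadjusted p under 0.05.

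The second probe set of Dcn, 1441506_at, differed from the first. It read 5.90 and 6.25 on control arrays without GH and 6.24 and 5.71 with GH, at the first quartile or around it. On null arrays it read 6.57 and 6.97 without GH and 8.12 and 8.08 with GH. Both null arrays with GH were above both without it. In the fit of single probe sets, GH raised it in null cells by 1.33 ± 0.18 (limma adjusted p = 0.000821), where 10.3% of all probe sets were called. The brightest Dcn probe set moved by 0.01 ± 0.09 in the same cells. The other 20 member probe sets moved between -0.39 and 0.07 there, and none of those was called. The interaction of this probe set was also called, where 4.64% of all probe sets were, and depended on single arrays: its adjusted p of 0.00889 went to 0.0501 without KO- replicate 2, 0.0633 without KO+GH replicate 2 and 0.0558 without KO+GH replicate 3. The rise in null cells was called with any 1 array left out (1.13 to 1.53, adjusted p up to 0.0207).

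**Figure D4:**
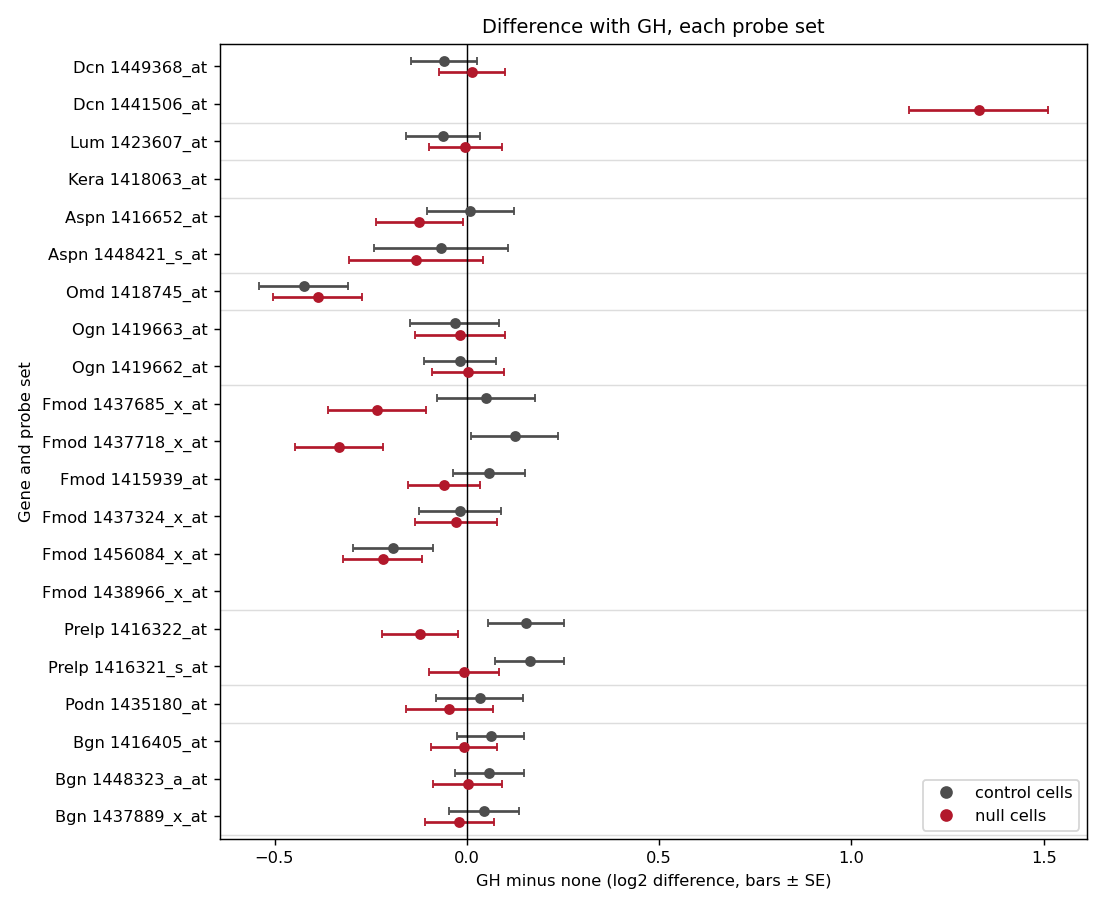
GH minus none log2 difference (horizontal axis) of each member's probe sets in control cells (grey) and null cells (red), fitted as single probe sets; bars are ± SE of the fit with 2 arrays per group. Probe sets with a group mean below the first quartile have no point. Omd lies at -0.42 and -0.39, 1441506_at of Dcn stands apart at 1.33 in null cells, and all other points in null cells lie between -0.39 and 0.01.

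The genes closest in pattern to the members with the largest range of group means were found by the root mean square difference of the 8 array values, each gene centred on its own mean. For Lum these were Qpct, which encodes the enzyme that cyclises N-terminal glutamine (0.07), the fibulin gene Fbln7 (0.12) and the complement protease gene C1s1 (0.14). For Dcn they were the dermatopontin gene Dpt, whose matrix protein binds decorin (0.08), the cadherin gene Cdhr1 (0.11) and Itm2a, a membrane protein gene (0.13). For Omd they were Plac1 (0.12), which was dim in WT+GH, Itm2a (0.18) and Naalad2 (0.23). These are descriptions over 8 arrays of 2 genotypes, on the scale of log2 differences.

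Other genes of the family were fewer and mostly dim. Of 8 further family genes, 6 were measured. In null cells without GH 3 were higher, against 24.8% of all genes, and none lower, against 22.7% (limma). With GH 2 were higher, against 22.2%, and none lower, against 23.1%. The 3 higher without GH were Optc, Chadl (1.01 ± 0.11, adjusted p = 1.04e-05) and Epyc. Epyc and the uncalled Ecm2, Chad and Nyx lay below the first quartile in every group, so little can be seen of them.

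The wider lists are read against the 24.8% of all genes higher and 22.7% lower without GH, and the median of 0.03 over all genes. Of 22 measured genes of chondroitin and dermatan sulphate synthesis, 12 were lower and 2 higher without GH, and 14 and 2 with GH, with medians of -0.33 and -0.40. B3galt6, a transferase of the linker that joins chain to core protein, differed by -0.99 ± 0.09, and the chain polymerase gene Chsy1 by -0.997 ± 0.11. Chst15, a sulphotransferase gene at 8.44 in control cells, was lower against a dim level, and the polymerase gene Chsy3 was called lower with every group dim. Dse, the epimerase that turns chondroitin into dermatan sulphate, was higher (0.56 ± 0.18, adjusted p = 0.0212). Of 9 keratan sulphate synthesis genes, 5 were lower and 1 higher in either GH state, with a median of -0.295 without GH. The sulphotransferase genes Chst2 (-0.90 ± 0.10) and Chst1 (-0.66 ± 0.11) and the galactosyltransferase gene B4galt4 (-0.75 ± 0.09) were lower, and the chain-extending B3gnt2 was higher (0.68 ± 0.09).

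Collagens to which these proteoglycans bind went both ways, with 6 of 14 higher and 3 lower without GH and 7 and 2 with GH, and a median of -0.0025 without GH. Col5a3 (2.37 ± 0.10) and the type VI genes Col6a2 (1.55 ± 0.11) and Col6a1 (1.44 ± 0.10) were higher, and Col12a1, a fibril-associated collagen, was lower (-2.31 ± 0.10). Of 24 growth factors and receptors reported to bind the family, 6 were higher and 11 lower without GH, with a median of -0.25. Igf1 (2.32 ± 0.09) and the WNT co-receptor Lrp6 (1.34 ± 0.10) were higher, and the matricellular genes Ccn2 (-2.11 ± 0.09) and Ccn4 (-1.98 ± 0.09) were lower. Toll-like receptor genes Tlr2 (1.21 ± 0.10) and Tlr4 (0.83 ± 0.10), whose products bind biglycan, were higher, and their co-receptor Cd14 was lower (-0.78 ± 0.10). The 3 TGF-beta genes were lower, by -0.54 for Tgfb3, -0.49 for Tgfb2 and -0.33 for Tgfb1.

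Proteases that process or cleave these proteins were 5 higher and 6 lower of 14 without GH, with a median of -0.11. Mmp2, a gelatinase, was higher (1.78 ± 0.10), whereas Htra1, a serine protease, was lower (-2.96 ± 0.09), as was Tll1, a tolloid protease (-1.46 ± 0.15). Mmp12, an elastase of macrophages at 9.15 in control cells, was lower against a dim level. Among 25 other proteoglycan core proteins, 3 were higher and 11 lower without GH, with a median of -0.13. Serglycin (Srgn), the proteoglycan of blood cell granules, was lower (-3.16 ± 0.11) on the same arrays on which the macrophage markers were, and the part of these was not tested. Betaglycan (Tgfbr3), a TGF-beta co-receptor, was higher (2.42 ± 0.10). Versican (Vcan), the large matrix proteoglycan of fibroblasts, was lower (-0.64 ± 0.10).

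With GH, 1.72% of all genes were higher and 0.896% lower in control cells, and 5.36% and 6.35% in null cells. Of the 24 growth factors and receptors, 3 were higher and 3 lower in control cells, and 7 were higher and none lower in null cells. Tlr2 was higher by 2.62 ± 0.10 in control (limma adjusted p = 8.80e-09) and 2.59 ± 0.10 in null cells (adjusted p = 1.21e-08), and its interaction of -0.03 ± 0.14 did not pass the test. Tnf, the inflammatory cytokine, was higher by 3.37 ± 0.13 in control cells (adjusted p = 6.38e-09) and differed by 0.08 ± 0.13 in null cells, with an interaction of -3.29 ± 0.18 (adjusted p = 6.57e-07). Srgn was higher by 1.22 ± 0.11 in control cells and differed by 0.14 ± 0.11 in null cells (interaction -1.07 ± 0.15, adjusted p = 0.00133). The 10 macrophage markers had a summed linear signal of 27659 to 30331 on control and 1706 to 1857 on null arrays. The part of this in the smaller GH differences of Tnf and Srgn in null cells was not tested. None of the 10 macrophage markers was called for GH in either genotype. For the interaction 1 of them was called, as lower, where 5.16% of all genes were called in either direction. The collagenase gene Mmp13 was higher in both, by 1.34 ± 0.14 in control and 2.41 ± 0.14 in null cells (interaction 1.07 ± 0.19, adjusted p = 0.00771). Of the 14 collagens, 4 were higher with GH in null cells and none was called in control cells. Of the 22 chondroitin and dermatan sulphate enzymes and the 9 keratan sulphate enzymes, 0 were called in control cells, and in null cells 1 of each list was higher and 1 lower.

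Markers of other cell types and of fibroblasts were examined beside the members. Of 9 measured cartilage and bone markers 3 were higher and 1 lower without GH, and their summed linear signal ran from 1065 to 1102 on control and from 1185 to 1225 on null arrays without GH. Of these, Ibsp lay below the first quartile in every group. Of 4 tendon markers, Mkx (2.28 ± 0.11) was higher and Scx was higher from a dim level, and Tnmd, at 9.97 in control cells, was lower against a dim level. Of 3 adipocyte markers all were higher, led by Lpl (2.26 ± 0.09), and Adipoq was dim in every group. Their summed linear signal was 1494 to 1567 on control and 5291 to 5827 on null arrays. Endothelial markers were called lower in 2 of 6 and higher in none, epithelial ones in 1 of 6 each way, and muscle ones lower in 2 and higher in 1 of 5. Of the endothelial markers 3 were dim in every group, among them Tek, which was called lower. The other lower one, Emcn, was dim in null cells. Over all genes 24.8% were higher and 22.7% lower without GH. Among the 12 fibroblast markers 2 were higher and 3 lower. Pdgfra, a receptor of stromal fibroblasts, was higher by 3.80 ± 0.11 (adjusted p = 6.88e-11). The 3 lower ones were Fn1 (-0.97 ± 0.09), Fap (-0.85 ± 0.10) and Ddr2 (-0.75 ± 0.11). The part of these markers in the family's differences was not tested.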

How the data were processed

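The series holds 8 Affymetrix whole-genome mouse arrays, grouped and numbered by their titles. For 1 KO- array the source name carries the number 3 and the title 2; the title was used, and the replicate block, the pairing check and the replicate numbers of the KO- arrays rest on it. The authors deposited log2 values made by RMA; the submitters' processing notes name RMA and Partek 6.10.0511, without settings. There are no detection calls, so where a group mean fell under the first quartile the size of a gene's difference is not given. Exceptions are the interaction of the Dcn probe set 1441506_at, of which only the direction can be taken, and the averages of the Dcn probe sets. Of 45101 probe sets, 64 controls were left out; 34945 had 1 annotated gene, 932 several and 9160 none. Symbols of 34741 were updated by Entrez identifier through the RefSeq table of GRCm38.p6. The probe set with the highest mean stood for each of 18193 genes. One mean per group was fitted in limma 3.58.1 (R 4.3.3) to all 8 arrays, with 4 residual and 7.82 prior degrees of freedom, and p-values were adjusted by Benjamini-Hochberg over all genes; errors are limma's SE. The number of arrays limits the precision. The fit was tested on simulated data. The members and lists were chosen with earlier results of these data known. All members were named. For each other list, up to 4 called genes with the lowest adjusted p without GH were picked, and not all of these are named in the text. Further genes of the lists and neighbours were named after their values were seen. Alternatives were a replicate block, each array left out, single probe sets, their mean per gene, a filter on dim genes, median centring, another variance model, a minimum fold of 1.5 and the groups compared alone.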

Additional observations from a re-analysis of the deposited data

Results flagged for a closer look

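The response to GH of the Dcn probe set 1441506_at differed between the genotypes. The difference between its GH effects in null and control cells was 1.43 ± 0.26 on the log2 scale (limma adjusted p = 0.00889 over single probe sets), with both null arrays with GH above both null arrays without it. Its control values lay around the first quartile, so only the direction of this difference can be taken. The brightest Dcn probe set gave 0.07 ± 0.12 (adjusted p = 0.844).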

How the results depend on the processing

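The 6 genes higher in null cells kept their direction and their call under every alternative that gave them a value in the 3 genotype comparisons (297 values; Kera drops out when dim genes are left out). Averaging probe sets took Dcn to 2.13 without GH and raised the Prelp call without GH (-0.47, adjusted p = 0.000309). The number of members called for GH in control cells, 0 as reported, was 1 when dim genes were left out, 1 with the other variance model and from 0 to 1 with 1 array left out. For GH in null cells it was 0 with single probe sets, 0 with median centring, 0 at a minimum fold of 1.5, 2 with probe sets averaged (Dcn and Omd) and from 0 to 1 with 1 array left out. For the interaction it was 1 with probe sets averaged (Dcn, 0.75). The called interaction of 1441506_at (1.43) was lost without KO- replicate 2 (1.23, adjusted p = 0.0501), KO+GH replicate 2 (1.41) or KO+GH replicate 3 (1.45), an alternative added after seeing the data. With the replicate number as a block, 8 and 9 members were called between the genotypes without and with GH, as in the fit without it, and 8 in their average, where Prelp was lost (adjusted p = 0.0689). Deviations of same-numbered arrays correlated from -0.28 to 0.13, so the numbers were not taken to pair the arrays. With the numbers crossed in the groups without GH, added after seeing the data, 1 member was called for GH in control cells. Over all genes, the counts that moved by more than 1.5 times were those at a minimum fold of 1.5 (2605 of 8640 between the genotypes without GH, 2423 of 8247 with GH, 2863 of 9926 averaged, 109 of 476 and 145 of 2130 for GH in control and null cells, 90 of 938 for the interaction), those over single probe sets, of which there are more (15377, 14728, 18214, 3598 and 1621), and for GH those with 1 array left out (295 to 460 in control cells, 818 to 2409 in null cells, 437 to 872 for the interaction) or with the groups compared alone (316 in control cells). The causes were not tested.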
